A study of Drosophila melanogaster with 6 samples.

Results

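The transcripts described here are those whose level rose in Drosophila melanogaster ovaries with forced JAK/STAT and EGFR signaling and ended above the level in wild-type ovaries. They were chosen by their values. Each array gives, for each probe, the log2 ratio of Cy5 (the ovary sample) over Cy3 (a common wild-type reference). Normalization set the bulk of the probes near 0. A ratio of 0 is read as the wild-type level and a ratio of 1 as 2-fold above it. A probe was taken when its mean ratio was at least 1 higher in ectopic expression than in control ovaries, all 3 ectopic arrays lay above all 3 control arrays, the ectopic mean was at least 1, and Cy5 was well above background on all 3 ectopic arrays. This gave 311 of 32162 probes, which carry 267 of 25857 different transcript or clone identifiers. Because these conditions used the values themselves, the levels below are a description and no test of them is given.

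The study compared whole ovaries of 5 to 8 day old females, with 3 biological replicates in each group and 6 arrays in all. Control females carried GAL80TS/+ ; GR1-GAL4/TM6B. Ectopic expression females carried GAL80TS/+ ; GR1-GAL4/UAS-Unpaired, UAS-lambdatorpedo. Both groups shared the driver GR1-GAL4, which acts in the follicle cells, and the temperature-sensitive repressor GAL80TS. Both came from crosses kept at 18 °C and were held at 29 °C for 16 h before dissection. The balancer TM6B was present in the control group alone, so its presence and the absence of the transgenes cannot be told apart. The reference was RNA from OreR females, which were kept at 25 °C and not shifted, so a ratio above 0 also spans this difference in temperature and strain. The sample was always in Cy5 and the reference always in Cy3, and a dye effect on a single ratio cannot be told apart from a level above or below the reference. Each slide held the control and the ectopic array of 1 replicate number. In whole ovaries, more RNA per follicle cell and more follicle cells cannot be told apart.

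Unpaired is the secreted ligand of the JAK/STAT pathway. It binds the receptor Domeless, which activates the kinase Hopscotch and the transcription factor Stat92E. UAS-lambdatorpedo encodes a constitutively active form of the EGF receptor Torpedo, whose ligand in the egg chamber is Gurken from the oocyte. Follicle cells at the posterior of the egg chamber receive both signals and take on the posterior follicle cell fate, and the driver placed both signals throughout the follicular epithelium.

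Few members could be given a gene name. The array names most probes by FlyBase transcript, clone or assembled sequence, and 502 probes (1.56%) matched exactly 1 gene of the RefSeq annotation (Release 6). Among the 311 members, 4 matched 1 gene, 1 matched several genes and was not named, and 306 matched none. Of 17 gene lists covering the pathways, matrix and axon guidance genes, heat shock genes, histones and markers of other cell types, 11 had no named probe, and no list had more than 14.3% of its genes named. Counts over these lists are therefore void, and neither the labelled tissue nor the transgenes could be checked against named probes. The list of known posterior follicle cell genes had 2 named genes of 14, and 1 of these, jim, was a member. Identifiers without a name are printed as the array gives them.

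The conditions were met in steps. A difference of at least 1 was met by 424 probes, and 420 of these had no overlap between the groups. An ectopic mean of at least 1 left 311 probes, and the condition on Cy5 signal removed none of these. Over all 32162 probes, 13.6% had every ectopic array above every control array, and 1.31% also differed by at least 1. With limma and a threshold of 0.05 on the adjusted p together with a 2-fold change, 419 probes (1.3% of all) were called higher in ectopic expression ovaries, and all 311 members were among them. Since the members were picked from this contrast, nothing is read from that overlap. On the scanner software's own log ratios 745 probes met the same conditions, 309 of them members, and with a background offset of 0 there were 496, all 311 members included. The members made up 1.96% of the 15851 probes with Cy5 well above background on all 3 ectopic arrays.

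In control ovaries the members lay close to the wild-type reference, and in ectopic expression ovaries they lay clearly above it. The control mean had a median of 0.06 over the members, with quartiles of -0.12 and 0.27. The ectopic mean had a median of 1.61, with quartiles of 1.31 and 2.05, and 80 members had an ectopic mean of at least 2. The median difference between the groups was 1.54, which is a 2.91-fold increase, against a median difference of -0.0033 over all probes. Normalization centers all probes near 0 on each array, so the medians over all probes, here and below, are set by the processing. The difference was less than 1.5 for 143 members, while 69 differed by at least 2 (4-fold) and 17 by at least 3 (8-fold).

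**Figure D1:**
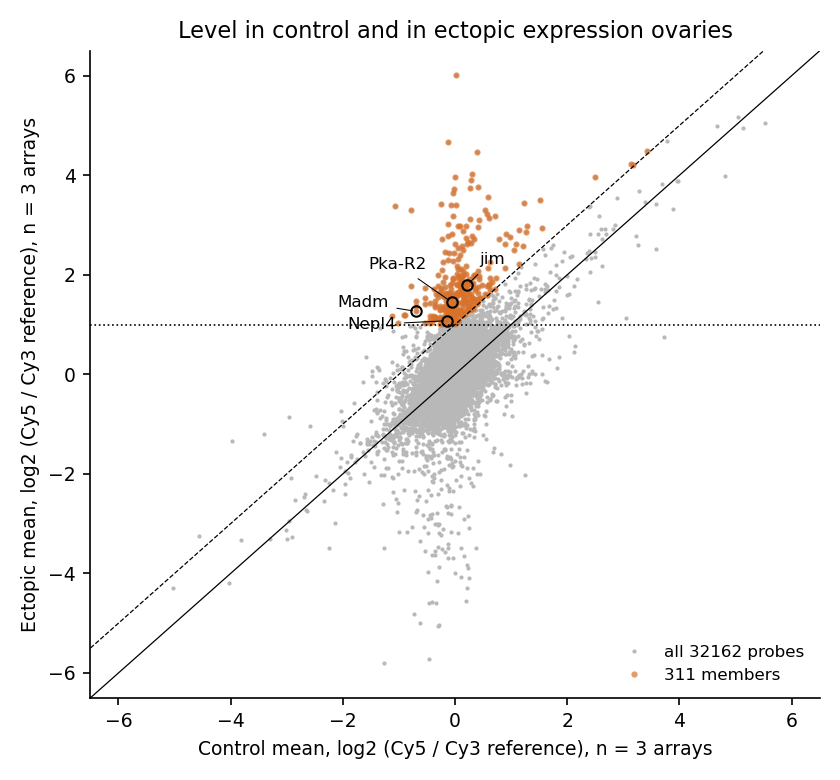
Mean log2 ratio of sample over wild-type reference in control ovaries (x axis) and in ectopic expression ovaries (y axis), over 3 arrays each, for all 32162 probes (grey) and the 311 members (orange), with the 4 named members ringed. The solid line marks equal levels, the dashed line a difference of 1 and the dotted line an ectopic mean of 1; most members form a column above a control mean near 0.

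Jim, a zinc-finger transcription factor, is the named member from the list of known posterior follicle cell genes. Its probe on 3L, named for clone SD14927, had log2 ratios of 0.31, 0.21 and 0.12 on control replicates 1, 2 and 3. On the ectopic arrays it had 2.00, 2.20 and 1.17. The control level was slightly above the reference on all 3 arrays, and ectopic replicate 3 was well below the other ectopic arrays. The means were 0.21 ± 0.10 and 1.79 ± 0.55 (SD, n = 3), a difference of 1.58 or 2.98-fold.

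Pka-R2, the type II regulatory subunit of cAMP-dependent protein kinase, lay at the reference level in control ovaries. Its probe (clone GM01761, 2R) had log2 ratios of -0.07, -0.18 and 0.09 on the control arrays and 1.44, 1.62 and 1.27 on the ectopic arrays. The ectopic arrays lay closer together than those of jim. The mean ratio went from -0.05 ± 0.14 to 1.44 ± 0.18 (SD, n = 3), an increase of 2.82-fold.

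Madm, an adaptor protein related to nuclear receptor binding protein kinases, was the named member that started below the wild-type level. Its probe (clone LD28657, 3R) had log2 ratios of -0.62, -0.84 and -0.61 on the control arrays and 1.30, 1.4 and 1.09 on the ectopic arrays, so it crossed the reference level. The means were -0.69 ± 0.13 and 1.26 ± 0.16 (SD, n = 3), a difference of 1.95 or 3.87-fold. The probe was dim in control ovaries, with Cy5 well above background on 2 of 3 arrays. The size of its change depended on background correction, with a difference of 3.99 on the scanner software's own log ratios.

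Nepl4 belongs to the neprilysin-like family of metallopeptidases and was the named member with the smallest increase. Its probe (NM_135175, 2L) had log2 ratios of 0.04, -0.08 and -0.38 on the control arrays and 1.18, 1.33 and 0.72 on the ectopic arrays. Control replicate 3 and ectopic replicate 3 were each the lowest of their group. The means were -0.14 ± 0.22 and 1.08 ± 0.32 (SD, n = 3), a difference of 1.22 or 2.32-fold.

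The largest increases were in probes without a gene name. RNA made from the transgenes is itself part of the ectopic samples, and whether it reached any of these probes was not tested. Probe A_09_P011396 (FBtr0112847) had log2 ratios of -0.085, -0.135 and 0.25 on the control arrays and 5.905, 6.11 and 5.995 on the ectopic arrays. The 3 ectopic arrays were nearly equal, and the difference of 5.99 was 63.7-fold. Its Cy5 signal above local background, as scanned, was 55.75, 42 and 136.75 on the control arrays and 23246, 20252 and 19660 on the ectopic arrays. Cy5 was well above background on 2 of 3 control arrays, so the size of this fold rests in part on a signal near background. Another probe with the same identifier, A_09_P162675, differed by far less, with means of 0.05 and 0.46. That probe had Cy5 well above background on none of the control arrays.

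Probe A_09_P143788 (assembled sequence TC238387) had the next largest measured difference. Its log2 ratios were -0.12, -0.10 and -0.14 on the control arrays and 4.49, 5.12 and 4.39 on the ectopic arrays, a difference of 4.79 or 27.6-fold. It was dim outside the ectopic samples, with Cy5 well above background on 1 control array and Cy3 on 3 of 6 arrays, so its control level and this fold rest on signals near background.

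**Figure D2:**
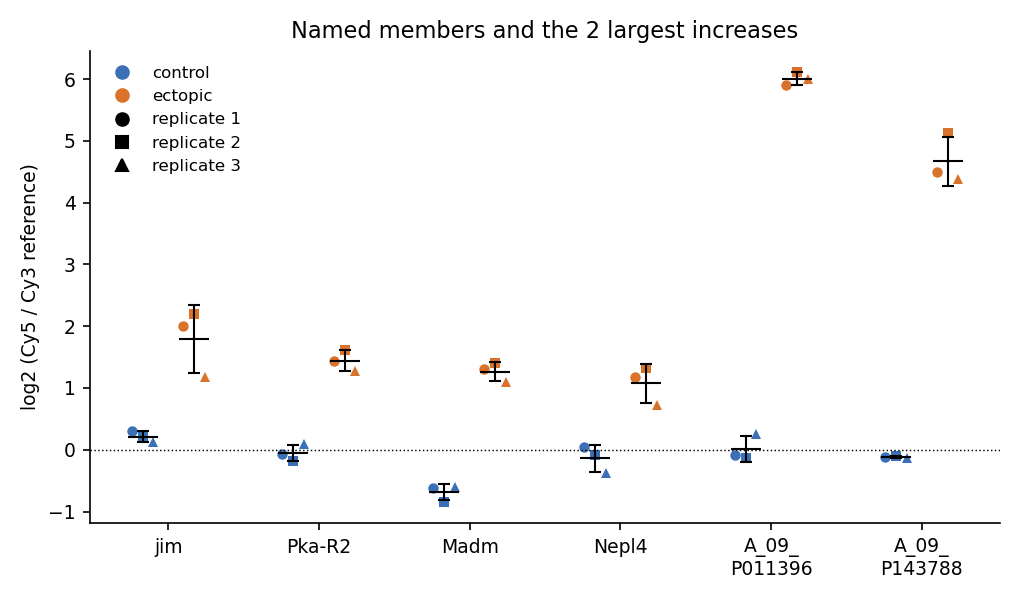
Log2 ratio of sample over reference on each array for the 4 named members and the 2 unnamed members with the largest increase, with control in blue, ectopic in orange and marker shapes for replicates 1, 2 and 3. Bars show the mean and SD of 3 arrays; no control value reaches an ectopic value of the same probe, as the choice of members required.

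Most members were at the wild-type level in control ovaries, and smaller groups began below or above it. With a limit of 0.5 on either side of 0, 261 members (83.9%) were near the reference in control ovaries, against 90.0% of the probes detected on the ectopic arrays. These members had a median control mean of 0.04 and a median ectopic mean of 1.55. The 14 members that began below the reference (4.50%, against 5.32% of detected probes) crossed it, with a median difference of 2.09. Madm was among them, as was A_09_P019556 (FBtr0079073), which had means of -1.07 and 3.37, although its Cy5 was well above background on none of the control arrays. The lowest control mean, -1.12, was that of A_09_P164275 (SD07683), which reached 1.16.

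The 36 members that were already above the reference in control ovaries (11.6%, against 4.66% of detected probes) reached a median ectopic mean of 2.67. The condition on the ectopic mean asks a larger rise of probes that begin below the reference. The shares and median differences of the groups below and above it are therefore set in part by the choice. Their median difference was 1.46, so the ectopic level added to one that the control group already had. The highest control level was that of A_09_P109975 (FBtr0078200), with log2 ratios of 3.30, 3.40 and 3.57 on the control arrays and 4.67, 4.78 and 3.98 on the ectopic arrays. Another detected probe of this identifier, A_09_P035131, had means of -0.10 in control and -0.32 in ectopic ovaries, so it showed neither the high level nor the rise. A_09_P050788 (SD01615) had 2.60, 2.28 and 2.62 on the control arrays and 4.35, 4.04 and 3.52 on the ectopic arrays. For A_09_P109975 and A_09_P050788 the level above wild type was present in both genotypes. Temperature, strain and dye all differ between the samples and the reference and cannot be told apart here.

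Every member was above the reference on every ectopic array, which the choice of members made likely. The size of the increase differed between arrays. The median over the members was 1.71 on ectopic replicate 1, 1.87 on replicate 2 and 1.28 on replicate 3, while the median over all probes was 0 on each of these arrays. A ratio of at least 1 was seen for 309, 311 and 231 members. On the control arrays the medians were 0.11, 0.05 and 0.025, with 17, 17 and 16 members at 1 or more. The lowest member on any ectopic array had a ratio of 0.48, on replicate 3.

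**Figure D3:**
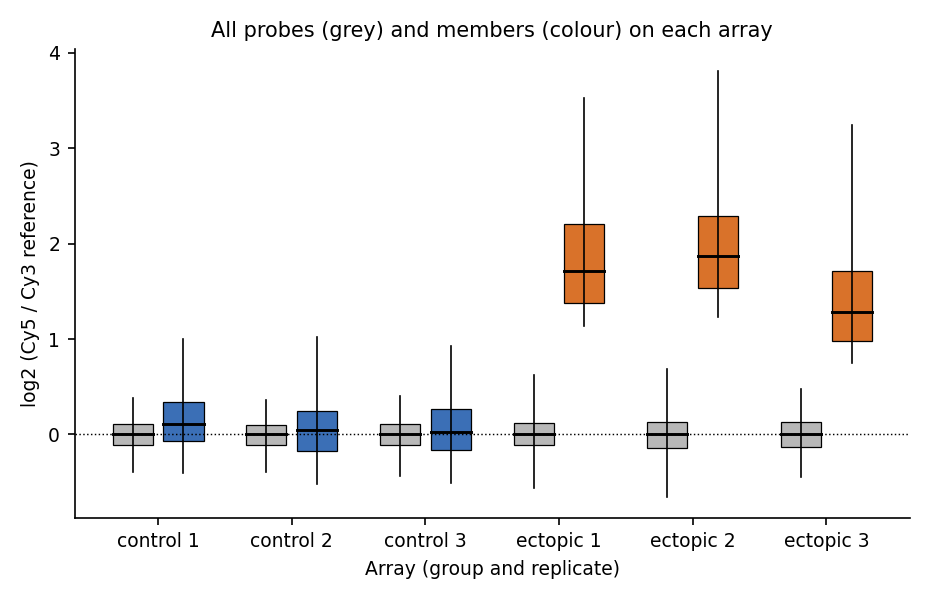
Log2 ratio of sample over reference on each array for all probes (grey) and the 311 members (blue in control, orange in ectopic). Boxes span the quartiles with the median as a line, and whiskers span the 5th to 95th percentile; the members' median is between 0.025 and 0.11 on the control arrays and 1.28, 1.87 and 1.71 on ectopic replicates 3, 2 and 1.

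Ectopic replicate 3 was the lowest of the ectopic arrays for 282 members (90.7%), against 41.3% of detected probes. The increase over the control mean on replicate 3, divided by that on replicates 1 and 2 together, had a median of 0.710 and ranged from 0.231 to 1.24. The same array had a narrower spread over all probes, with an SD of 0.388 against 0.476 and 0.506 on ectopic replicates 1 and 2. On the control arrays this SD was 0.306, 0.321 and 0.324. The part of the array in the smaller increases was not tested. The detected probes also include unchanged and lowered ones, so they are not a like set for the 90.7%. A closer set is the 109 probes that met every other condition but had an ectopic mean under 1. Of these, 82.6% were lowest on replicate 3.

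The ratio of replicate 3 to the other ectopic arrays was not the same for all members. It was under 0.5 for 19 members and above 1 for 12 members, which carry 9 identifiers. A_09_P048671 (FBtr0085760) had the highest ratio, with log2 ratios of 2.47, 3.025 and 3.11 on the ectopic arrays and 1.02, 1.35 and 1.42 on the control arrays. There were 3 identifiers with 2 such probes each, and one of them was GM10545, at 1.09, 1.18 and 1.29 on the ectopic arrays for one probe and 1.36, 1.08 and 1.41 for the other. At the other end, A_09_P145425 (FBtr0332879) had 1.74, 1.89 and 0.73 on the ectopic arrays and 0.39, 0.62 and 0.20 on the control arrays.

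**Figure D4:**
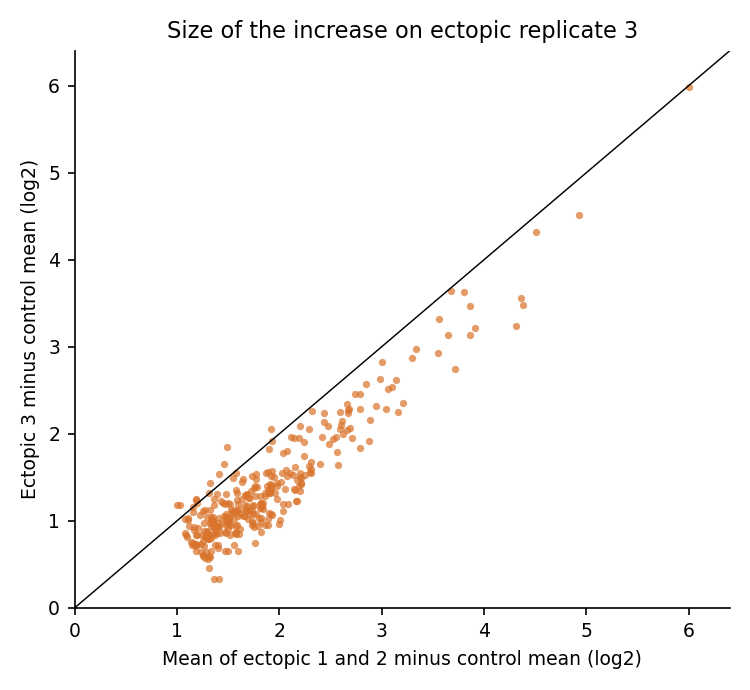
Increase over the control mean on ectopic replicate 3 (y axis) against the mean increase on ectopic replicates 1 and 2 (x axis), in log2 units, with 1 point for each of the 311 members. The line marks equal size; 12 members lie above it.

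Members with larger increases on one ectopic array had larger increases on the others. The Pearson correlation of the increases over the 311 members was 0.960 between replicates 1 and 2, 0.927 between 1 and 3, and 0.926 between 2 and 3, and Spearman's rho was 0.909, 0.820 and 0.809. These are descriptions, since all 3 increases were taken from the same control mean and the probes share arrays. Within slides, the median difference over the members was 1.58, 1.81 and 1.21, against 0, 0 and -0.005 over all probes. A difference of at least 1 was seen within all 3 slides for 221 members. The smallest difference within a slide was 0.18, on slide 3, for A_09_P220050 (FBtr0070244).

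The gap between the groups, which the choice of members required, varied in width. The lowest ectopic array exceeded the highest control array by a median of 1.04, by at least 1 for 169 members and by under 0.5 for 8. The SD between arrays had a median of 0.311 over the members in ectopic ovaries and 0.136 in control ovaries, against 0.125 and 0.106 over detected probes. Pairs of spots of 1 probe on 1 array had a median SD of 0.0495. There were 192 members with 1 spot, 117 with 2 and 2 with 10.

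The members with 10 spots show the difference between ectopic arrays within a probe. Probe A_09_P067256 (FBtr0070780) had spot means of 2.119, 2.195 and 1.314 on the ectopic arrays, and its 10 spots ranged from 1.23 to 1.43 on replicate 3 and from 1.87 to 2.26 on replicate 1. On the control arrays its means were 0.269, 0.224 and 0.211. Probe A_09_P064481 (FBtr0114516) had 2.203, 2.117 and 1.237 on the ectopic arrays and 0.15, 0.154 and 0.077 on the control arrays. For both probes no spot on replicate 3 reached the lowest spot on replicates 1 and 2.

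Several members had no measured level in one of the samples they were compared with. Detection differed between the control arrays, with Cy5 well above background for 33915 spots on replicate 3, against 24903 and 24449 on replicates 1 and 2. Among members, Cy5 was well above background on all 3 control arrays for 280 and on none for 9. For these 9 the change is given as a lower bound, with the control signal set to the higher of the probe's own and the dimmest well above background. For most of them the probe's own signal was the higher, and the bound from the ratios is then the measured fold itself. The smaller of the bounds from the normalized Cy5 channel and from the ratios was taken. Each bound is on the mean of 3 arrays and holds no margin for the spread between arrays. In ectopic expression ovaries their levels were at least 2.01-fold to at least 20.8-fold those of the control group, with A_09_P019556 (FBtr0079073) at the upper end. The reference in Cy3 was well above background on all 6 arrays for 271 members and on none for 15. Those 15 were at least 2.09-fold to at least 10.3-fold above the reference in ectopic expression ovaries, and these bounds compare different dyes without a swap. Both probes of FBtr0086215 were dim in control ovaries. On the mean of 3 arrays, the brighter of them, A_09_P057761, rose 10.5-fold and the other, A_09_P212580, 7.36-fold. These are the measured folds, because the control signal used was each probe's own. Their mean log2 differences were 3.39 and 2.88, and slide 3 alone gave lower values of 2.905 and 2.55.

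The increase lay in the sample channel. After loess and between-array scaling of the single channels, the Cy5 difference between the groups had a median of 1.57 over the members, and the Cy3 difference had a median of 0.04. Cy3 holds the same reference RNA on every array, yet it was somewhat higher on the ectopic arrays for the members that rose most. The median Cy3 difference was 0.02 for the 242 members that differed by 1 to 2, 0.14 for the 52 that differed by 2 to 3, and 0.27 for the 17 that differed by 3 or more. Cy3 was higher on all 3 ectopic arrays than on all 3 control arrays for 17.4% of members, against 2.49% of detected probes. For A_09_P011396 the Cy3 signal above local background, as scanned, was 32.25, 37.5 and 32.25 on the control arrays and 110.25, 158 and 102.75 on the ectopic arrays. Its normalized Cy5 difference was 7.31 and its Cy3 difference 1.26. The part of Cy3 in the ratios of the other members was not tested.

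Features that the conditions did not name were compared with those of the 15851 detected probes. Reference brightness is not independent of the choice, because Cy3 is the denominator of each ratio. By this brightness, with the detected probes in 4 bins of equal size, 84 members were in the dimmest bin, 156 in the second, 54 in the third and 17 in the brightest. The members were thus mostly spots of low to middling Cy3 signal, with a median percentile of 36.0, although spot brightness also depends on the probe. The 109 probes left out by their ectopic mean alone had a median percentile of 51.7. The median difference varied little between these bins, at 1.60, 1.51, 1.56 and 1.46. Member spots were spread over the slide, with 24.9%, 25.8%, 28.0% and 21.3% in the 4 quadrants.

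By identifier, 272 members (87.5%) were named for FlyBase transcripts, against 81.4% of detected probes, and 10 (3.22%) for assembled sequences, against 7.17%. Among clone names, the SD clones, which were isolated from a Schneider cell line library, contributed 8 members from 7 identifiers. These were 15.1% of the 53 detected SD probes, while the other clone names gave 12 of 468 (2.56%). The other libraries differed among themselves. Their shares included 0 for AT, GH and RH, 5.00% for RE, 5.13% for IP, 5.77% for GM and 12.5% (1 of 8) for LP. The SD members ranged from A_09_P050791 (SD02026), with 0.55, 0.36 and 0.36 on the control arrays and 3.29, 3.14 and 2.88 on the ectopic arrays, to SD01615, and they included jim. The counts are small and several SD probes may report the same gene.

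Probes that shared an identifier mostly moved the same way, though often by different amounts. Of the 267 member identifiers, 170 had 1 probe and 97 had several. All probes were members for 34 of these 97, and 63 had at least 1 probe that was not. The 107 other probes of these identifiers had a median difference of 0.55, with 93 above 0, and 69 of them (64.5%) had every ectopic array above every control array. The same was true of 13.6% of all probes and 23.0% of detected probes. None of these probes made its identifier a member, but each of them missed at least 1 of the conditions. Their smaller differences are therefore set in part by the choice. They were measured on the same 6 arrays as the member probes and may overlap them in sequence.

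Agreement between probes was close for some identifiers. The pair of FBtr0082686 probes reached log2 ratios of 4.035, 4.275 and 3.76 in one case and 4, 4.28 and 3.42 in the other on the ectopic arrays, with differences of 3.73 and 3.62. Other identifiers were split. FBtr0071654 had 5 probes, with differences of 3.67, 3.15, 1.96, -0.10 and -0.32, so that 3 were members. The probe at -0.32 was not well above background on all 3 ectopic arrays. The probes of FBtr0087792 differed by 3.75 and 1.53. Over the 97 identifiers the spread between the highest and lowest probe had a median of 0.58, and 9 identifiers had a probe at or below 0. For 5 of these 9 such a probe was well above background on all 3 ectopic arrays. Which exons or isoforms these probes lie in was not analysed here.

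**Figure D5:**
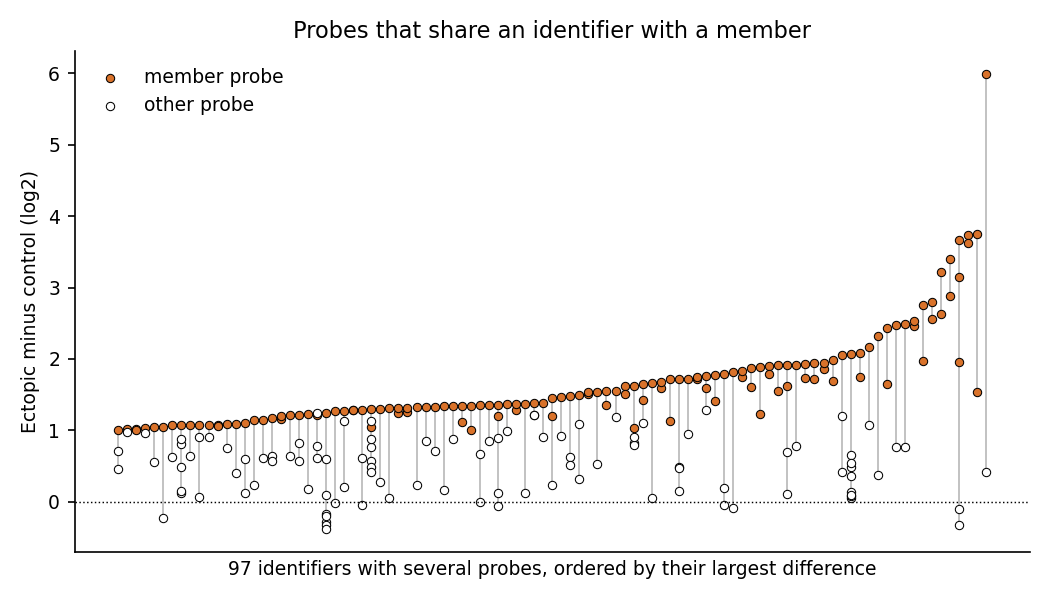
Difference between ectopic and control means (log2, y axis) for each probe of the 97 identifiers with several probes, ordered by their largest difference (x axis), with member probes filled and other probes open. Grey lines join the probes of 1 identifier; 93 of the 107 other probes lie above 0.

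The thresholds divided a continuous range. The 3 members with the smallest difference were A_09_P044846, A_09_P050586 and A_09_P042336, at 1.00, 1.01 and 1.01. The nearest probes left out for their difference alone were at 0.997, 0.993 and 0.993. For the ectopic mean, the nearest members were at 1.00, 1.01 and 1.01 and the nearest probes left out at 0.998, 0.987 and 0.985. In all, 109 probes were left out by the ectopic mean alone and 186 by the difference alone. The 109 rose from a median control mean of -0.68 to a median ectopic mean of 0.69, with a median difference of 1.14.

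The named genes that met all conditions but 1 were kek1, Uhg5, sei, RpL30, CG14715, CG8204 and lncRNA:CR44042. Kek1, a transmembrane protein that inhibits the EGF receptor and is induced by its signaling, had log2 ratios of -0.20, -0.57 and -0.48 on the control arrays and 0.68, 0.78 and 0.31 on the ectopic arrays. It differed by 1.01 but ended at a mean of 0.59. Uhg5, sei and RpL30 differed by 1.23, 1.09 and 1.04 and ended at means of 0.48, 0.11 and 0.72. CG14715 was above the reference in both groups, with means of 2.40 and 3.38, and missed the difference threshold at 0.98. CG8204 was likewise above it in both groups, with means of 1.95 and 2.45. The long noncoding RNA lncRNA:CR44042 went from a mean of 0.32 to 1.29, a difference of 0.97.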

How the data were processed

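Ovary RNA was hybridized in Cy5 against Cy3-labeled wild-type reference RNA on 6 Agilent arrays, grouped by the labels into 3 control and 3 ectopic. The authors deposited log2 ratios, which their methods describe as corrected by normexp and normalized by loess and quantiles in limma, with 2 decimals. Rebuilt with an offset of 50 they correlated with the deposited ratios at 0.9997 to 0.9999, but the offset is not stated in the sources used here. The deposited scanner files (Feature Extraction 11.0.1.1) hold the intensity of each spot and its background, the software's own log10 ratio, and flags, of which the well-above-background score of 0 or 1 was used. Saturation flags were 0 throughout, and precision is limited by there being 3 arrays a group.

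Control spots were removed and spots were averaged by probe. The members, lists and tests were chosen with earlier results of these data known. A linear model in limma 3.58.1 (R 4.3.3) with Benjamini-Hochberg adjustment over 32162 probes served as background only and was tested on simulated data. Members matched to 1 gene were named, with the 2 largest unnamed increases and probes near the thresholds. Other probes and genes in the text were chosen after their values were seen. Alternatives changed the ratio source, spots, detection, thresholds, arrays and slide block. Single channels were scaled by loess and Aquantile. The rule for lower bounds was set after seeing the values. Columns were set to samples through the labels, and the log ratio p-values of the scanner software were not used. Coordinates and sequences were not used here. Python 3.11.15, pandas 2.3.3 and numpy 2.4.6 made the counts.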

Additional observations from a re-analysis of the deposited data

How the results depend on the processing

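No alternative reversed the median difference over the members, or the differences of the 4 named and 2 largest unnamed members. Nothing is read from this, because these members were picked for a rise on the same arrays. Where members were chosen anew, the condition of a difference of at least 1 also fixed the sign of their median. The source of the ratios moved the members most: 745 probes (615 identifiers, median difference 1.97) met the conditions on the scanner software's log ratios and 496 (411 identifiers) with normexp at an offset of 0, and the limma calls over all probes rose from 419 to 718 on the software's ratios. Madm differed by 2.98 with an offset of 0, against 1.95. The cause was not tested. Raising the difference to 1.5 left 168 members (143 identifiers), and raising the ectopic mean to 1.5 left 183 (158 identifiers). Leaving out each array in turn gave 271 to 413 members, 234 to 351 identifiers, median differences of 1.42 to 1.73 and 354 to 546 limma calls. The highest count of members came without ectopic replicate 3. On slide 3 alone the median difference was 1.21. All other alternatives gave 280 to 375 member probes.

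With the replicate number, which is also the slide, as a block, limma called 421 probes. Same-numbered arrays deviated together with correlations of 0.248, 0.0025 and 0.101, so the numbers were not taken to pair the samples. Probes dim in Cy5 or Cy3 limit the precision of the largest ratios.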
